A study of Mus musculus with 2 samples.

Results

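Upper hair follicle cells are the keratinocytes of the upper part of the hair follicle, between the bulge stem cell niche and the surface epidermis. They were sought among mouse skin cells taken 3 and 5 days post-wounding (dpw) by single-cell RNA sequencing. Cells were chosen by their measured levels of Krt79 and Defb6, which together had to reach 1500 CPM, that is UMIs scaled to a fixed library total. UMIs are unique molecular identifiers, each standing for 1 captured RNA molecule. Krt79 (chromosome 15, 101929332 to 101940324 in GRCm38) is a keratin of the follicle opening, and Defb6 (chromosome 8, 19225478 to 19228209) is a secreted beta-defensin. By this rule 202 of 4897 wounded cells were upper follicle cells, among 5666 cells of the whole experiment that carried 1 hashtag. The remaining 4695 wounded cells served as the comparison and are called the other wounded cells.

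The mice carried Sox9-CreER and R26-LSL-YFP on a C57B6/J background, so that Cre, driven from Sox9, marks SOX9-positive follicle cells and their progeny with YFP. Phgdh, which encodes the enzyme that starts serine synthesis from a glycolytic intermediate, was either wild type (+/+) or flanked by loxP sites on both alleles (fl/fl). Controls and fl/fl mice therefore share the Cre and the reporter. Male and female mice were pooled, and the ages and the numbers of animals are not given in the sources used here. Wounded cells were sorted as live cells, negative for CD140a, CD117, CD31 and CD45, high for integrin-α6 and positive for YFP. The high integrin-α6 gate limits what can be seen of differentiated cells, which carry less of it. All conditions went into 1 capture, and a hashtag antibody marks the condition of each cell. Each of the 4 wounded conditions was therefore 1 pool, with no replicate, no test and no p-value. Intervals cover counting error only, at 95%.

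The 4 antibody hashtags that place each upper follicle cell in its pool are shown 5′ to 3′, since every comparison between genotypes and times rests on them. No base is in capitals.
+/+ 3 dpw: gagtctgccagtatc
+/+ 5 dpw: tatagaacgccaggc
fl/fl 3 dpw: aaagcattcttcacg
fl/fl 5 dpw: tatgctgccacggta

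The upper follicle, comprising the infundibulum, the junctional zone and the sebaceous duct, is continuous with the epidermis. Its cells keep the canal open and protect it with defensins, protease inhibitors and secreted proteases, and several stem cell pools marked by Lrig1, Plet1 or Lgr6 reside there. After wounding, follicle cells leave their niche, move into the epidermis and switch on the wound keratins Krt6a, Krt6b, Krt16 and Krt17.

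Krt79 and Defb6 chose the cells, and their levels are given as a description. Across the 202 cells the median was 4394 CPM for Krt79 and 1570 CPM for Defb6. Both genes passed 1500 CPM in 80 cells, Krt79 alone in 90, Defb6 alone in 24, and only the sum in 8. The nearest cells inside the cut were at 1512, 1556 and 1624 CPM, and the nearest outside at 1463, 1447 and 1436 CPM. There were 24 cells between 1000 and 1500 CPM and 23 between 1500 and 2250 CPM; the cut thus runs through a continuous range. No UMI of either gene was found in 62.9% of the other wounded cells. Free RNA, read from barcodes with 100 to 400 UMIs, held 211 CPM of Krt79 and 90.7 CPM of Defb6. At the mean size of those barcodes it would make up at most 0.837% of the UMIs of an upper follicle pool.

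**Figure D1:**
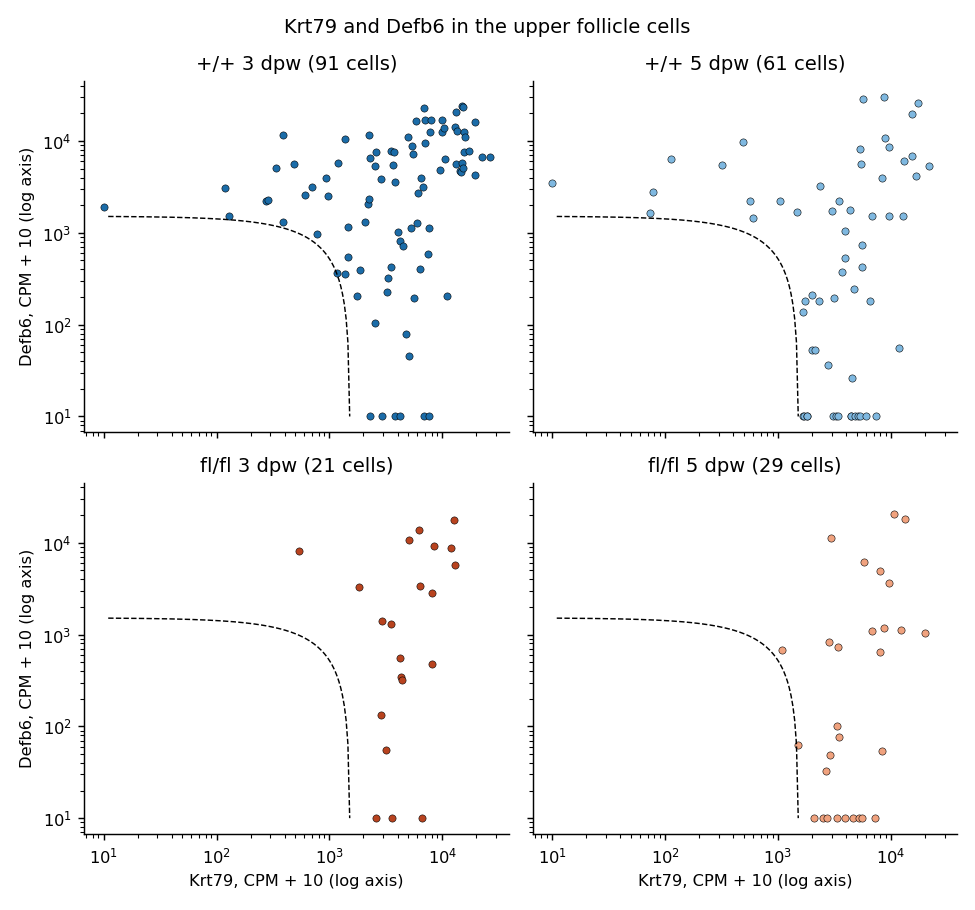
Each point is 1 upper follicle cell, with Krt79 on the x axis and Defb6 on the y axis (both in CPM plus 10, log axes), in 1 panel per pool. The dashed line is the cut at a sum of 1500 CPM. Most cells pass it through Krt79, and 6 of the 29 cells of the fl/fl 5 dpw panel reach 1500 CPM of Defb6.

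The label was set beside 13 measured upper follicle genes other than the 2 that chose the cells. Their list was chosen with earlier results of these data known, so it describes the cells and does not test the label. Of the 13, 6 were at least 2-fold higher than in the other wounded cells in all 4 pools (Cst6, Gata6, Lrig1, Atp6v1c2, Nebl and Alox12e) and none was lower in all 4. Over all 5844 genes tested, 219 (3.75%) were higher and 117 (2%) lower in all 4 pools. Gata6, Atp6v1c2 and Alox12e passed the minimum of 20 CPM only through the upper follicle cells, and of the 10 genes with at least 20 CPM in the other cells, 3 were higher (Cst6, Lrig1 and Nebl). Likewise 106 of the 219 higher genes were below 20 CPM in the other cells and 54 of the 117 lower genes below it in the upper follicle cells, so counts of higher or lower list members are descriptions. The other 7 upper follicle genes did not reach 2-fold in all 4 pools in the same direction. Plet1, a marker of the junctional zone, was at 476, 404, 126 and 503 CPM in the +/+ 3 dpw, +/+ 5 dpw, fl/fl 3 dpw and fl/fl 5 dpw pools against 380, 252, 385 and 235 CPM, lower than in the others in the fl/fl 3 dpw pool and higher in the other 3, and Klk10 had a median log2 ratio of -3.01. Ly6a, outside this list, encodes SCA1 of the interfollicular epidermis and infundibulum, and it went against the label. It was at 72.1, 53.6, 139 and 25.8 CPM in the same 4 pools, against 239, 279, 244 and 307 CPM in the others. Markers of lineages outside the epithelium were scarce. The summed level of 8 T cell genes lay between 3.11 and 6.94 CPM, that of 8 fibroblast genes between 1.56 and 18.2 CPM, and that of 6 endothelial genes at no more than 1.97 CPM, with Cd3e, Col1a1, Col3a1, Cdh5 and Kdr at 0. The summed level of 10 Langerhans and myeloid genes lay between 0.991 and 39.3 CPM, with Cd207 and Csf1r at 0, that of 6 Merkel cell genes reached 6.94 CPM and that of 5 erythroid genes 1.56 CPM. The 7 melanocyte genes summed to 42.8 to 82.3 CPM, nearly all of it Mitf at 38.9 to 79.6 CPM, while Tyr was at 0. The sebaceous gland, which adjoins the upper follicle, was less clearly apart. Its 14 genes summed to 449, 1394, 409 and 684 CPM in the same 4 pools, against 296 to 326 CPM in the others, and 1 cell of the +/+ 5 dpw pool reached 16051 CPM. Pparg, a factor of sebocytes, was at 7.52, 29.5, 0 and 50.5 CPM in the same order, against 3.80, 1.41, 1.62 and 0.611 CPM, where the 0 allows up to 4.67 CPM. The part of such cells in the results at 5 dpw was not tested. The bulge stem cell marker Cd34 was found in 2.48% of upper follicle cells against 7.54% of the others, after each cell was thinned to 5000 UMIs (6.44% and 19.3% unthinned). Other bulge genes went the other way. Of 7 measured, 4 were higher in all 4 pools (Sox9, Nfatc1, Cd200 and Barx2) and 0 lower. The 14 genes of the bulge list summed to 690 to 1171 CPM, against 285 to 622 CPM in the others. The label thus does not set these cells apart from the bulge by all of its genes.

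Upper follicle cells were a small share of each wounded pool. They numbered 91 of 1381 cells in the +/+ 3 dpw pool (6.59%, Clopper-Pearson interval 5.34 to 8.03) and 61 of 1501 in the +/+ 5 dpw pool (4.06%, 3.12 to 5.19). In the fl/fl pools they numbered 21 of 517 cells at 3 dpw (4.06%, 2.53 to 6.14) and 29 of 1498 at 5 dpw (1.94%, 1.30 to 2.77). These shares were highest in the +/+ 3 dpw pool and lowest in the fl/fl 5 dpw pool. The fl/fl pools lay below the +/+ pools by -2.53 percentage points at 3 dpw (Newcombe interval -4.52 to -0.141) and by -2.13 points at 5 dpw (-3.39 to -0.913). From 3 to 5 dpw the share differed by -2.53 points in +/+ (-4.21 to -0.889) and by -2.13 points in fl/fl (-4.27 to -0.507).

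The pools differed in the sex of their cells. Cells could be called female (Xist) in the +/+ wounded pools, where they made up 30.3% and 22.7% of cells at 3 and 5 dpw, and in neither fl/fl pool. At 5 dpw, 29 of 341 female-called +/+ cells were upper follicle cells (8.50%, 5.77 to 11.99), against 28 of 1025 male-called cells (2.73%, 1.82 to 3.92). At 3 dpw the female-called and male-called shares in +/+ were 5.49% (3.51 to 8.12) and 6.76% (5.13 to 8.70). Among male-called fl/fl cells the shares were 3.69% (2.16 to 5.84) at 3 dpw and 2.03% (1.35 to 2.92) at 5 dpw. Male-called shares were lower in fl/fl than in +/+ at both times (3.69% against 6.76%, and 2.03% against 2.73%). Between male-called cells the intervals of the genotypes overlapped at both times, as did those of all cells at 3 dpw. No interval of the difference was computed for male-called cells, so the overlap does not show that the genotypes were alike. Animal and genotype cannot be told apart here.

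**Figure D2:**
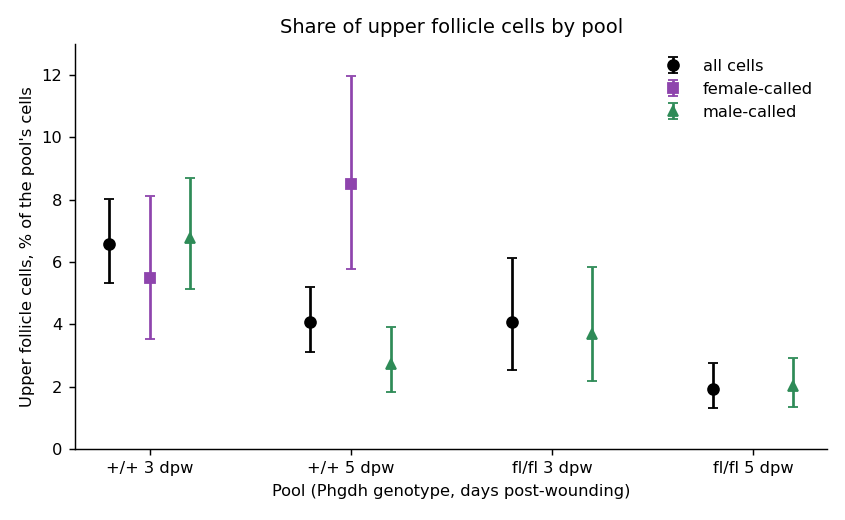
The y axis gives upper follicle cells as a percentage of all cells of the pool, and the x axis the 4 wounded pools, for all cells, female-called cells and male-called cells. Bars are Clopper-Pearson intervals. The share is 6.59% in the +/+ 3 dpw pool and 1.94% in the fl/fl 5 dpw pool, and within +/+ 5 dpw the female-called share (8.50%) lies above the male-called share (2.73%).

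The upper follicle cells were shallower than the others, which matters wherever cells with a UMI are counted. Their median was 28428, 23039, 27458 and 30419 UMIs in the +/+ 3 dpw, +/+ 5 dpw, fl/fl 3 dpw and fl/fl 5 dpw pools, against 39040 to 46909 in the others. Their summed depth was 2926621, 2033628, 642321 and 1009171 UMIs in the same order. Mitochondrial UMIs made up a median of 4.87% to 5.29% in upper follicle cells and 4.03% to 4.32% in the others. In what follows, values for the 4 pools are always given in the order +/+ 3 dpw, +/+ 5 dpw, fl/fl 3 dpw and fl/fl 5 dpw.

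Besides the 2 genes used to choose the cells, and among higher genes that averaged 50 CPM or more over both sets of cells, the highest by median log2 ratio were a lipoxygenase, a keratin and a protease inhibitor. Alox12e, an epidermal lipoxygenase, stood at 98.4, 153, 90.3 and 96.1 CPM in the upper follicle cells and at 1.94, 1.80, 1.62 and 0.811 CPM in the others. It was high in every pool with no overlap, a median log2 ratio of 6.11. Krt77, a type II keratin, was at 193, 126, 63.8 and 198 CPM against 9.94, 1.83, 1.06 and 0.798 CPM (median log2 ratio 6.01), although only 70 of the 202 cells held a UMI of it. Cst6, a secreted inhibitor of cathepsins and of legumain, reached 12352, 4172, 1681 and 1912 CPM against 285, 211, 253 and 199 CPM (median log2 ratio 3.78). Few cells carried much of this level. The median per upper follicle cell was 942, 109, 398 and 47.4 CPM, and after thinning Cst6 was found in 83.5%, 55.7%, 71.4% and 31.0% of them, against 34.1%, 33.2%, 33.5% and 37.0% of the others. In the fl/fl 5 dpw pool the share was thus not above that of the other cells.

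Regulators of fate were among the higher genes. Gata6, a transcription factor of the upper follicle and sebaceous duct lineage, was at 72.1, 46.7, 76.3 and 35.7 CPM in the upper follicle cells, and its median log2 ratio was 4.41. After thinning it was found in 21.8% of upper follicle cells and 1.87% of the others (61.9% and 6.01% unthinned). Lrig1, which restrains EGF receptor signalling and marks junctional stem cells, was at 243, 181, 324 and 220 CPM against 37.7, 40.4, 36.9 and 24.5 CPM. Of the 21 measured fate factors, 3 were higher in all 4 pools (Gata6, Sox9 and Barx2) and 0 lower; with TMM factors, which rescale the pools, 1 was past 2-fold in all 4. Sox9, the follicle stem cell factor that drives the Cre, was at 147, 148, 90.3 and 238 CPM in the upper follicle cells and had a median log2 ratio of 1.23. Bulge genes followed the same direction, with 4 of 7 higher in all 4 pools (Sox9, Nfatc1, Cd200 and Barx2) and 1 of 7 under TMM factors. Cd200, a surface glycoprotein of bulge cells, stood at 102, 74.3, 91.9 and 78.3 CPM, with a median log2 ratio of 2.52.

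The other named higher genes were varied. Adgrl3, a latrophilin adhesion receptor, was at 676, 519, 814 and 557 CPM against 74.6, 56.9, 69.8 and 25.9 CPM, and it was detected in 181 of the 202 cells. Sema6a, a semaphorin, Slit3, a secreted ligand of Robo receptors, and the kinase Pak3 had median log2 ratios of 3.34, 2.90 and 2.91. The guanine exchange factor Kalrn and the kinesin family member Kif26b had median log2 ratios of 2.96 and 3.37. Slit3 was uneven, at 111, 165, 71.6 and 20.8 CPM, and 49.3% of its UMIs in the +/+ 5 dpw pool came from 1 cell. The immediate early factor Egr2 was higher as well (2.83), while none of 14 immediate early genes listed as signs of dissociation was past 2-fold in all 4 pools, although 11 of them were above the others in every pool (2173 of 5844 over all genes) and 0 below.

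Apoe, the lipid carrier, was at 10734, 11087, 11293 and 10194 CPM against 2054, 2312, 1867 and 1289 CPM, with little spread across the pools. Ccl27a, a skin chemokine that draws memory T cells, was at 242, 439, 283 and 261 CPM, a median log2 ratio of 2.84. The retinol dehydrogenase family member Sdr16c6 had 215, 238, 240 and 298 CPM against 22.4, 36.7, 18.0 and 33.1 CPM. Klk7, a kallikrein protease of desquamation, stood at 692, 148, 193 and 316 CPM in the upper follicle cells, with a median log2 ratio of 2.82, and after thinning it was found in 32.2% of them against 3.83% of the others. With TMM factors Klk7 was under 2-fold in at least 1 pool. Of 16 measured xenobiotic response genes, 4 were higher in all 4 pools (Ahr, Aldh3a1, Gstm1 and Ephx1) and 3 lower (Gsta4, Akr1b8 and Hmox1). With TMM factors 3 were higher and 3 lower. Ahr, the aryl hydrocarbon receptor, was at 112, 148, 111 and 111 CPM, with a median log2 ratio of 2.41.

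Antigen presentation genes were higher in part. Of 8 measured interferon and MHC class I genes, 3 were at least 2-fold higher in all 4 pools (B2m, Tap1 and Psmb8). Of the 8, 7 were above the others in every pool (2173 of 5844 over all genes). The median log2 ratio of the 8 was 1.15 against 0.10 over all genes tested. B2m, the invariant chain of MHC class I, was at 583, 389, 574 and 342 CPM in the upper follicle cells. With TMM factors 2 of the 8 were past 2-fold in all 4 pools. The MHC class I-like gene Mill1 and the Skint family member Skint3 had median log2 ratios of 3.44 and 3.03.

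**Figure D3:**
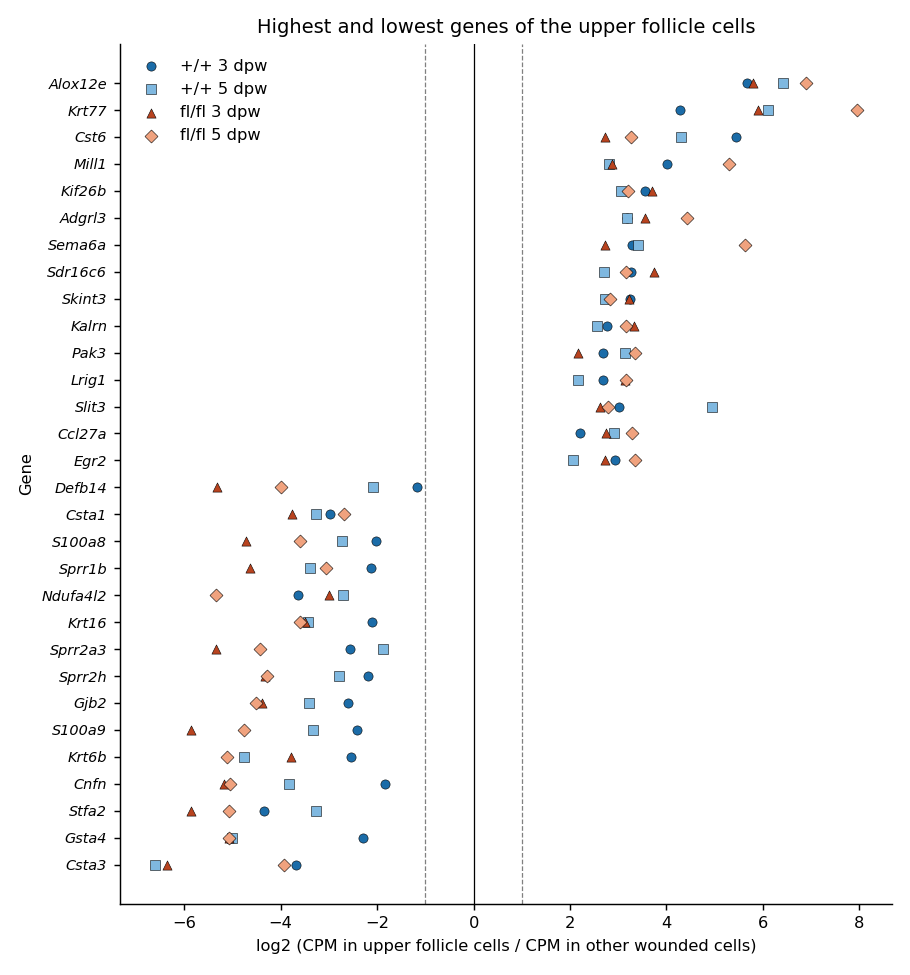
Each row is 1 of the 15 highest or 15 lowest genes, and the x axis is the log2 ratio of CPM in upper follicle cells to CPM in other wounded cells; the 4 symbols are the 4 pools, and dashed lines mark a 2-fold difference. For all 30 genes the 4 pools lie on the same side beyond the dashed lines, with Alox12e at 6.11 and Csta3 at -5.14 in the median, and the +/+ 3 dpw pool is the one nearest to 0 for 11 of the 15 lower genes.

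The wound programme was low in the upper follicle cells. Krt16 was at 2317, 1022, 949.7 and 948 CPM against 9927, 11047, 10767 and 11429 CPM in the others, so no pool overlapped. Krt6b was at 531, 137, 220 and 103 CPM against 3079, 3716, 3009 and 3584 CPM, and Krt6a at 2456, 1755, 2768 and 1069 CPM, with median log2 ratios of -4.27 and -1.73. Cells with at least 5000 CPM of Krt16 numbered 7 of 91, 2 of 61, 0 of 21 and 1 of 29, against 36.3% to 45.2% of the other wounded cells. The 0 of 21, taken as up to 3 cells, allows a share of up to 14.3%. Krt17, the fourth wound keratin and also a keratin of the resting follicle, did not share this direction, at 7862, 2788, 5535 and 2719 CPM and a median log2 ratio of 0.59.

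Genes of the migrating wound edge were lower too. Of 7 measured wound edge genes, 4 were lower in all 4 pools (Mmp9, Mmp10, Mmp13 and Itga2). All 7 were below the others in every pool (1456 of 5844 over all genes). Mmp13, a collagenase, was at 0.342, 0.983, 3.11 and 0 CPM in the upper follicle cells, with the 0 allowing up to 2.97 CPM, against 84.3, 27.3, 102 and 29.0 CPM in the others. Of 6 measured antimicrobial genes, 3 were lower and 1 higher, Lcn2, an iron-binding lipocalin (median log2 ratio 2.19, and under 2-fold in at least 1 pool with TMM factors). The lower 3 were the alarmins S100a8 and S100a9 and the inducible defensin Defb14, with median log2 ratios of -3.17, -4.05 and -3.04. The cystatins Csta3, Stfa2 and Csta1 (-5.14, -4.70 and -3.12), the envelope precursors Sprr2h, Sprr2a3, Sprr1b and Cnfn (-3.54, -3.49, -3.22 and -4.44) and the gap junction gene Gjb2 (-3.90) were lower too. Of the fixed list of 14 measured cystatins, cathepsins and transglutaminases, 3 were lower and 1 higher, Cst6. Of 8 measured granular layer genes, 2 were lower (Cnfn and Lce3c) and 0 higher, and the list summed to 669, 147, 145 and 447 CPM against 937, 409, 864 and 293 CPM, higher in the fl/fl 5 dpw pool. Of 11 measured cytokines and chemokines, 2 were higher (Ccl27a and Il34) and 1 lower (Il33, median log2 ratio -2.94). With TMM factors 1 was higher and 1 lower. Gsta4, a glutathione transferase that clears lipid aldehydes, was at 134, 12.8, 23.4 and 11.9 CPM against 662, 412, 784 and 398 CPM.

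Genes that anchor basal cells to the basement membrane were lower. Of 13 measured basal genes, 8 were lower in all 4 pools (Krt5, Itga6, Itgb4, Itgb1, Col17a1, Itga3, Lamb3 and Lama3) and 0 higher, and the median log2 ratio was -1.54. Over all genes 117 of 5844 (2%) were lower. Itga6, which encodes the integrin used to sort these cells, was at 189, 162, 123 and 147 CPM, with a median log2 ratio of -1.16. Krt14 was present in all 202 cells, at 11919, 10563, 14698 and 11566 CPM against 24926, 26514, 25626 and 29913 CPM. Ly6a, which encodes SCA1 of the interfollicular epidermis and infundibulum, was at 72.1, 53.6, 139 and 25.8 CPM, a median log2 ratio of -2.05. The desmosome and tight junction list was split, with Cldn1 and Ocln higher and Dsc2, Gjb2, Gjb6 and Gja1 lower among 19 measured genes. With TMM factors 1 was higher and 4 lower.

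Glycolysis genes were lower, and cell cycle genes lay below the others. Of 19 measured glycolysis and hypoxia genes, 9 were lower in all 4 pools and 0 were higher, with a median log2 ratio of -1.24. Of the 19, 17 were below the others in every pool (1456 of 5844 over all genes). Slc16a3, a lactate exporter, was at 4.10, 8.36, 0 and 2.97 CPM, where the 0 allows up to 4.67 CPM, and Bnip3 was at 6.15, 4.92, 1.56 and 5.95 CPM. All 14 measured G2/M genes were below the others in every pool, beside the same 1456 of 5844 over all genes. Their median log2 ratio was -1.51, but 0 of them passed 2-fold in all 4 pools. Mki67 was found after thinning in 12.9% (8.58 to 18.3) of upper follicle cells and 31.2% (29.9 to 32.6) of the others (26.2% and 59.3% unthinned). Top2a was found in 19.3% and 30.5%. Ube2c, a mitotic ubiquitin-conjugating enzyme, was at 134, 89.5, 17.1 and 7.93 CPM, lower in both fl/fl pools. In the other cells its log2 ratio of fl/fl to +/+ was 0.01 at 3 dpw and 0.15 at 5 dpw.

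Cells high in the suprabasal keratins Krt1 and Krt10 were found in both sets. Krt1 and Krt10 together reached 2000 CPM in 16.5%, 24.6%, 19.0% and 41.4% of upper follicle cells and in 12.3%, 26.1%, 9.68% and 25.7% of the others. The upper follicle share was the higher in every pool but +/+ 5 dpw, and every pair of intervals overlapped. With 21 and 29 upper follicle cells in the fl/fl pools the intervals are wide, so the overlap does not show equal shares. Over the 4 pools the shares were 22.8% (17.2 to 29.2) and 20.5% (19.3 to 21.7). Of 13 measured spinous genes, 2 were higher in all 4 pools, Krt77 and Skint3, and 0 lower. When both sides were restricted to cells below 2000 CPM of Krt1 plus Krt10, 218 genes were higher, of which 180 were among the 219. At 2000 CPM or more, 109 genes were higher, of which 78 were among the 219, from only 46 upper follicle cells.

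The scaling moves the balance of these calls. The 219 higher and 117 lower genes became 131 and 207 with TMM factors, which move the median log2 ratio of all genes tested from 0.10 to -0.18, and 167 and 146 with equal weight per cell. The 131 were all among the 219, and the 207 held all of the 117. With equal weight, 145 of the 167 and 99 of the 146 were shared.

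The upper follicle cells spanned a wide range of Defb6, and 2 classes were cut from it at 1500 CPM, with 16 cells from 1000 to 1500 CPM and 13 from 1500 to 2250 CPM. Cells with at least 1500 CPM of Defb6 (Defb6-high) made up 65.9% (55.3 to 75.5), 45.9% (33.1 to 59.2), 47.6% (25.7 to 70.2) and 20.7% (7.99 to 39.7) of the upper follicle cells, highest at 3 dpw in +/+ and lowest at 5 dpw in fl/fl. Between the 104 Defb6-high and the 98 Defb6-low cells, 31 genes (0.523% of 5927 tested) were at least 2-fold higher and 7 (0.118%) at least 2-fold lower in all 4 pools. Since the choice of the cells used Defb6, these are descriptions, and a class is a range of values, not a cell type.

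Cst6 differed most, at 22092, 11076, 3808 and 9985 CPM in the Defb6-high cells and 920, 105, 655 and 451 CPM in the Defb6-low cells. Across the 202 cells Spearman's rho was 0.66 between Defb6 and Cst6, 0.34 between Defb6 and Krt79, and 0.41 between Krt79 and Cst6, all from cells of 1 capture that share free RNA. The rho of Defb6 with the UMIs of a cell was -0.36. Gata6 was at 99.3, 91.5, 153 and 123 CPM in the Defb6-high cells and 40.1, 20.3, 39.2 and 19.9 CPM in the Defb6-low cells. Krt15, a keratin of the bulge and basal layer, was at 1173, 1962, 799 and 2921 CPM against 474, 458, 199 and 270 CPM. The 2921 CPM rests on 6 Defb6-high cells of the fl/fl 5 dpw pool, with a median of 863 CPM and a highest cell at 23086 CPM. Defb6-high cells were also higher in the MHC class I gene H2-Q7 (log2 ratio 2.56), the immunoproteasome subunit Psmb8 (1.87), Ccl27a (1.52), Alox12e (1.78), Krt77 (2.53), Cd200 (1.96) and the semaphorin Sema3e (2.49).

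Sox4, an HMG-box transcription factor, was higher in the Defb6-low cells, at 101, 306, 23.1 and 421 CPM against 22.1, 35.8, 4.78 and 32.3 CPM in the Defb6-high cells. Gja1, the connexin 43 gene, was at 76.5, 158, 43.9 and 81.9 CPM against 34.2, 11.9, 4.78 and 12.9 CPM. Both were low in the fl/fl 3 dpw pool in either class, with 1 UMI of each counted in the 10 Defb6-high cells. Sox4 lay in 56 of 98 Defb6-low and 29 of 104 Defb6-high cells, counted without thinning, while the rho of Defb6 with the UMIs of a cell was -0.36. The median of Sox4 per Defb6-low cell was 0, 52.2, 0 and 198 CPM.

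**Figure D4:**
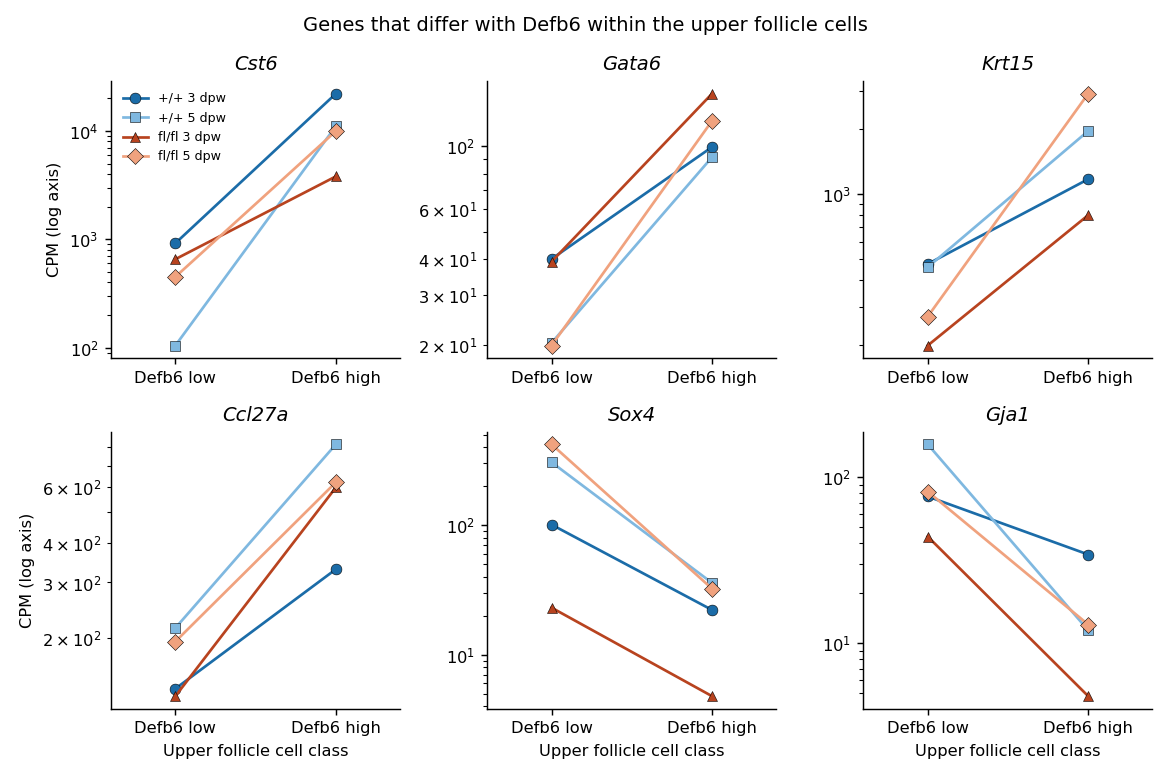
For 6 genes, each line joins the CPM (y axis, log scale) of the Defb6-low and Defb6-high upper follicle cells of 1 pool. Cst6, Gata6, Krt15 and Ccl27a are higher in the Defb6-high cells in all 4 pools, and Sox4 and Gja1 are lower. The fl/fl 3 dpw points rest on 11 Defb6-low and 10 Defb6-high cells, and the fl/fl 5 dpw points on 23 and 6.

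Krt1 and Krt10 gave another split. Of the upper follicle cells, 46 reached 2000 CPM of Krt1 plus Krt10. The other 156 did not. In each of the 3 pools that had at least 5 cells on each side, 26 genes (0.443% of 5863) were at least 2-fold higher and 27 (0.461%) lower. The fl/fl 3 dpw pool, with 4 cells at 2000 CPM or more, was left out of these counts. The levels and log2 ratios that follow are from all 46 and 156 cells. Outside the 2 keratins that define the split, the higher genes included the metallothionein Mt4 (log2 ratio 6.57, held by 17 of the 46 cells), the cystatin Stfa3 (2.05), the desmocollin Dsc1 (125 against 31.3 CPM) and the protease Tmprss4 (1.83). The lower genes included Top2a (-2.20), Hist1h1b (-2.85), Ccnd2 (-2.01), Mki67 (-1.81) and Igfbp4 (-1.92). Within the 3 pools Hist1h1b ranged from -4.32 to -3.37.

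Phgdh, the gene that the fl/fl genotype is designed to remove, was compared in the upper follicle cells first. In +/+ they held 69.4 CPM (203 UMIs) at 3 dpw and 89.0 CPM (181 UMIs) at 5 dpw. In fl/fl they held 2 UMIs at 3 dpw (3.11 CPM, log2 ratio to +/+ -4.48, -7.53 to -2.61) and 5 UMIs at 5 dpw (4.95 CPM, -4.17, -5.81 to -2.92). Both fl/fl levels were below both +/+ levels, and no fl/fl upper follicle cell held more than 1 UMI. In the other wounded cells of the fl/fl pools 17.7 and 21.6 CPM remained, against 117 and 138 CPM in +/+, and single cells there held up to 31 UMIs. The share of cells with a Phgdh UMI was 9.52% (1.17 to 30.4) and 17.2% (5.85 to 35.8) in the fl/fl upper follicle cells and 19.2% (15.8 to 22.9) and 26.96% (24.7 to 29.3) in the other fl/fl cells, at lower depth in the former.

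**Figure D5:**
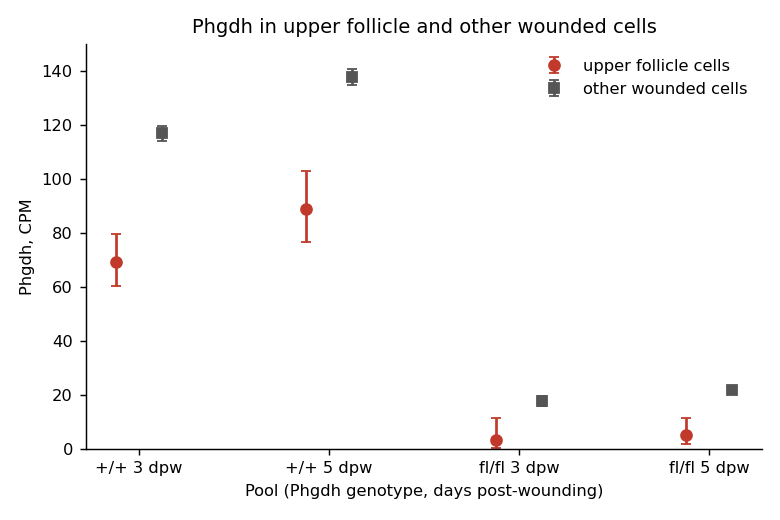
The y axis is the level of Phgdh in CPM with exact Poisson intervals, and the x axis gives the 4 wounded pools, for upper follicle and other wounded cells. The fl/fl upper follicle cells lie at 3.11 and 4.95 CPM, below the other fl/fl cells at 17.7 and 21.6 CPM, and the +/+ upper follicle cells at 69.4 and 89.0 CPM lie below the other +/+ cells.

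In the serine synthesis pathway and the stress response, few genes passed 2-fold. Psat1, which follows Phgdh, was at 46.5, 57.5, 45.1 and 42.6 CPM in the upper follicle cells, below the others in every pool, and its genotype intervals held 0 at both times. Psph, the last step, was at 175, 251, 188 and 209 CPM, above the 108 to 128 CPM of the others in every pool. Atf4, which the integrated stress response induces, was at 124, 145, 93.4 and 148 CPM, with a median log2 ratio of 0.01 to the others. Its log2 ratio of fl/fl to +/+ was -0.41 at 3 dpw (-0.83 to -0.02) and 0.03 at 5 dpw (-0.26 to 0.32). Of 14 measured Atf4 targets, 0 were past 2-fold higher and 1 lower between the genotypes at 3 dpw, and 1 higher and 0 lower at 5 dpw.

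Between the genotypes at 3 dpw, 62 genes were at least 2-fold higher in fl/fl upper follicle cells (1.06% of 5868 tested, with an interval excluding 0) and 186 lower (3.17%). In the other wounded cells, whose pools are far deeper, the counts were 3 (0.053%) and 4 (0.0706%). With 21 fl/fl cells, many of these rest on few cells. Female-called cells were 23 of the 91 +/+ and 0 of the 21 fl/fl upper follicle cells, so sex differs together with genotype. Cst6 had the most UMIs behind it, at 1681 against 12352 CPM, yet its median per cell was 398 against 942 CPM and its cells ranged from 0 to 103831 CPM in +/+. The G2/M list had 7 of 12 genes lower and 0 higher (Cenpf, Nusap1, Ube2c, Mki67, Cdk1, Top2a and Ccnb1), and the antimicrobial list 6 of 7 lower and 0 higher. For some of these 1 cell carried the +/+ level, with 91.3% of the UMIs of Slpi and 66.7% of those of S100a8 in a single cell. Tslp, an epithelial cytokine, had 96.6% of its +/+ UMIs in 1 cell. On the higher side, all 68 UMIs of Cxcl10 lay in 1 of 21 fl/fl cells. Higher genes carried by more cells were Adh7, a retinol-oxidising dehydrogenase (129 against 58.1 CPM, log2 ratio 1.15), Aldh3a1 (160 against 74.1 CPM, 1.11) and Gpc4, a glypican (91.9 against 39.0 CPM, 1.24). In the other wounded cells these 3 ratios were -0.04, 0.03 and 0.09.

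Between the genotypes at 5 dpw, 118 genes were higher in the 29 fl/fl cells (2.01% of 5878) and 143 lower (2.43%). In the other wounded cells, whose pools are far deeper, the counts were 1 (0.018%) and 20 (0.36%). With such unlike numbers of cells these counts do not show a stronger difference in upper follicle cells. Female-called cells were 29 of the 61 +/+ and 0 of the 29 fl/fl upper follicle cells, so sex differs together with genotype here too. The cholesterol and fatty acid list had 8 of 19 genes lower and 0 higher, and the G2/M list 5 of 5 lower. Scd1, the desaturase of sebaceous lipid, was at 109 against 364 CPM, but 62.8% of the +/+ UMIs lay in 1 cell, and 3 +/+ cells held at least 1000 CPM of it. Mki67 was at 21.8 against 98.8 CPM, with 54.2% of the +/+ UMIs in 1 cell. Asprv1, a protease that processes filaggrin, was at 249 against 36.9 CPM (log2 ratio 2.75), Nrg1, an EGF family ligand, at 287 against 75.7 CPM (1.92) and Klk8 at 229 against 73.3 CPM (1.64). Single fl/fl cells held 43.0%, 29.7% and 34.2% of these UMIs, and Asprv1 was found in 13 of 29 fl/fl and 30 of 61 +/+ cells. In the other wounded cells the log2 ratios of Asprv1, Nrg1 and Klk8 were -0.92, -0.21 and -0.11. Stxbp5l was at 2.97 against 129 CPM, a log2 ratio of -5.44, and the other wounded cells gave -5.43, a like size.

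Between 5 and 3 dpw in +/+, 84 genes were higher (1.4% of 5984) and 84 lower (1.4%), against 8 (0.142%) and 35 (0.623%) in the other wounded cells. The pools of the other wounded cells are far deeper, so these counts do not show a stronger difference in upper follicle cells. Female-called cells were 29 of 61 at 5 dpw and 23 of 91 at 3 dpw, so sex differs together with time. Krt10 was higher, at 3236 against 892 CPM (log2 ratio 1.86), with UMIs in 55 of 61 and 80 of 91 cells, and Krt1 at 2721 against 976 CPM (1.48). In the other cells these log2 ratios were 1.05 for Krt10 and 0.86 for Krt1. After thinning Krt10 was found in 57.4% of upper follicle cells at 5 dpw and 58.2% at 3 dpw, and Krt1 in 59.0% and 41.8%. Single cells held 28.9% of the Krt10 UMIs at 5 dpw and 27.8% at 3 dpw. Sox4 was higher (206 against 58.4 CPM), as was Robo1, a Slit receptor (128 against 13.7 CPM). The kallikreins and their inhibitors were lower in 7 of 11 measured genes and higher in 0. They included Klk7 at 148 against 692 CPM, Klk10 at 16.2 against 127 CPM and Spink5, an inhibitor of kallikreins, at 74.3 against 462 CPM. The sebaceous list had 6 of 9 genes higher and 0 lower, while single cells held 72.7% of the Soat1 UMIs and 62.8% of the Scd1 UMIs at 5 dpw. For Elovl6, which is not in this list, 1 cell held 78.5% of the UMIs at 5 dpw.

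Between 5 and 3 dpw in fl/fl, 408 genes were higher (7.03% of 5803) and 223 lower (3.84%), with 29 and 21 cells. In the other wounded cells, whose pools are far deeper, the counts were 23 (0.412%) and 73 (1.31%). These counts do not show a stronger difference in upper follicle cells. Sox4 was at 362 against 17.1 CPM (log2 ratio 4.40), with UMIs in 17 of 29 and 5 of 21 cells, and Runx1, a follicle stem cell factor, at 409 against 112 CPM (1.87), in 28 of 29 and 17 of 21 cells. The fate factor list had 7 of 21 genes higher and 1, Gata6, lower. The interferon and MHC class I list had 5 of 9 lower and 0 higher, among them Ifitm3 at 260 against 838 CPM and Psmb8 at 19.8 against 65.4 CPM. The share of Defb6-high cells differed between the same pools (20.7% against 47.6%), and its part in these differences was not tested. Each time comparison shares a pool with each genotype comparison, so the comparisons are not independent of one another.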

How the data were processed

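The deposited matrix holds UMI counts per gene and hashtag for every barcode of 1 capture, made by the authors with Cell Ranger 7.1.0 on mm10, per the submitters' processing notes, which also name Seurat 4.3.0. Barcodes with at least 5000 gene UMIs and at most 10% mitochondrial UMIs were kept (6407), and 5666 took the pool of a hashtag with at least 20 UMIs and at least 70% of hashtag UMIs. The deposited feature reference ties each hashtag to a time and to WT or cKO, read here as +/+ and fl/fl. The 70% rule drops doublets between hashtags, and no caller was run for those within one.

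UMIs were summed per pool and scaled to CPM. Genes needed a mean of 20 CPM over the 8 values. A gene was counted when past 2-fold in all 4 pools, or, between pools, past 2-fold with an exact conditional binomial interval that leaves out 0. Shares carry Clopper-Pearson, differences of shares Newcombe and levels Poisson intervals (Python 3.11.15 with statsmodels 0.14.6 and scipy 1.17.1). Where no UMI was counted, the limit given is 3 UMIs. Thinning drew 5000 UMIs per cell. A female call needed 2 or more UMIs of Xist with no more than 1 from the Y chromosome, and a male call the opposite.

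Named genes are the 15 highest and 15 lowest by median log2 ratio among counted genes of at least 50 CPM, 10 each way per comparison, up to 4 members of a list, and the fixed genes Phgdh, Psat1, Psph, Atf4, Cst6, Gata6, Plet1, Lrig1, Krt17, Krt1, Krt10, Krt14 and Mki67, without mitochondrial, ribosomal, Gm, Rik, Xist, Tsix and Y-linked genes. Sox4, Gja1, Krt15, Apoe and other genes outside the rule were picked after their values were seen. The cells, gene lists and rules were chosen with earlier results of these data known. The calculation was tested on simulated data. Alternatives were other cuts, filters, hashtag rules, weights, TMM factors (edgeR 4.0.16, R 4.3.3), gene minimums and strata.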

Additional observations from a re-analysis of the deposited data

Results flagged for a closer look

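Krt79 plus Defb6 also passed 1500 CPM in 5 unwounded cells, a group outside the comparisons. All 5 had Cd34 and Lgr5 at 0, although unwounded cells were sorted for CD34 protein, and their Cst6 lay between 592 and 29774 CPM. Of 741 barcodes without an assigned hashtag, 10 (1.35%) passed the same cut.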

How the results depend on the processing

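TMM factors turned the balance of genes from more higher to more lower. Of the main values recomputed under the alternatives, 98 stayed within their interval or within 1.5 times, and 21 did not. With at most 5% mitochondrial UMIs the shares were 4.89%, 2.90%, 2.45% and 1.29% (+/+ 3 and 5 dpw, fl/fl 3 and 5 dpw), and the counts of genes between pools were 468 and 649 for genotype at 3 and 5 dpw and 522 for time in +/+, from fewer cells. A cut of 3000 CPM gave a +/+ 5 dpw share of 3.06%, and Krt79 alone a +/+ 3 dpw share of 5.14%. A top hashtag of at least 90% gave 5.53% in +/+ 5 dpw and 2.90% in fl/fl 5 dpw. Male-called cells alone gave 2.73% in +/+ 5 dpw and 362 genes for time in +/+. Genes higher and lower in all 4 pools numbered 131 and 207 with TMM factors, 111 and 69 at a minimum of 50 CPM, 355 and 207 at 5 CPM, and 109 and 43 in cells with 2000 CPM or more of Krt1 plus Krt10. Beyond fewer genes or cells, the cause was not tested. Leaving out 1 pool at a time gave 229 to 263 higher and 129 to 150 lower genes. No paired analysis was possible because each condition is 1 pool without replicate numbers. Depth limits the fl/fl pools most, where 3 UMIs are 4.67 CPM at 3 dpw, and folds there often rest on 1 cell.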

Other observations

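Retinoid and Notch genes, which take part in the fate of the follicle canal, have not been described above. Of 11 measured retinoid genes, 1 was higher in all 4 pools (Sdr16c6) and 1 lower, Fabp5, a fatty acid and retinoic acid carrier, at 7035, 7206, 6005 and 6167 CPM in the upper follicle cells and a median log2 ratio of -1.57. The 8 measured Notch genes had 0 past 2-fold either way and a median log2 ratio of 0.45, with Notch1 at 96.4, 117, 77.8 and 111 CPM and Notch3 at 44.1, 55.6, 65.4 and 41.6 CPM. The EGF family was split, with Lrig1 and Lrig3, which restrain the receptor, higher and the ligands Areg and Epgn lower among 12 measured genes. Of 12 measured BMP, WNT and hedgehog genes, Bmp7 and Sostdc1 were higher and Wnt4 and Wnt5a lower in all 4 pools, and Sostdc1, a secreted inhibitor of BMP and WNT, was at 191, 375, 249 and 469 CPM. With TMM factors 0 of the 12 were higher and 2 lower in all 4 pools.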
